A study of Mus musculus with 9 samples.

Results

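The genes described here make, store and release glucose: G6pc, Pck1, Fbp1, Pygl, Gys1, Gys2, Pklr and Slc2a2. They were taken by symbol from the annotation of a spotted mouse array, and 7 of the 8 were found, on 8 of 23040 probes, among 15096 genes with a single symbol. Gys2, the glycogen synthase of liver, had no probe with that symbol and is not analysed here. The genes were chosen by their role and with their strain ratios on these same arrays already known, so those ratios are given as a description. The number of them past the threshold of the model over all genes is printed once, beside the share of all genes, and supports nothing.

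RNA of male mice aged 8 weeks was compared between the inbred strains SJL/J and C57BL/6J in liver, kidney and brain. On each of 9 arrays, 3 per tissue, RNA pooled from 5 SJL/J males (labelled with Alexa Fluor 647) was hybridised against RNA pooled from 5 C57BL/6J males (Alexa Fluor 555). The 3 arrays of a tissue were repeats of the same 2 pools with the dyes never exchanged, so every SD and p-value below measures the spread between arrays and not between mice. No treatment was given in the labels, and neither feeding state nor time of day was stated. Each value is a log2 ratio, SJL/J over C57BL/6J, and a positive value is read as more RNA in the SJL/J pool. Because the dyes were not exchanged, a difference between dyes at a probe cannot be told apart from a difference between strains. The direction is likely rather than stated, taken from the dyes and from which strain the titles put first, and base 2 was taken from limma's convention.

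In gluconeogenesis the liver and the kidney cortex build glucose from lactate, amino acids and glycerol. Pck1 makes phosphoenolpyruvate from oxaloacetate, Fbp1 removes a phosphate from fructose bisphosphate, and G6pc removes the last phosphate so that free glucose can leave the cell, which in hepatocytes is served by the transporter Slc2a2. Liver also stores glucose as glycogen, which glycogen synthase extends and the phosphorylase Pygl breaks down, while Pklr, the pyruvate kinase of liver, runs the last step of glycolysis in the opposite sense to Pck1. Glucagon, glucocorticoids and fasting are known to raise transcription of G6pc and Pck1, and insulin to lower it.

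The promoters of 3 of these genes are shown because they had the lowest liver ratios (G6pc and Pygl) or the highest kidney ratio (Pck1). RefSeq (GRCm38.p6) gave promoter entries for 7 of the 8 genes, and each sequence is the 250 bases before the gene start, written 5′ to 3′ on the strand of the gene. Capitals mark matches, on either strand, to TGACG (core of a CREB site), GTTAAT (core of an HNF1 site), TGTTTNC (forkhead core) and TATAAA (known as the TATA box).
G6pc, chr11:101367466-101367715, plus strand: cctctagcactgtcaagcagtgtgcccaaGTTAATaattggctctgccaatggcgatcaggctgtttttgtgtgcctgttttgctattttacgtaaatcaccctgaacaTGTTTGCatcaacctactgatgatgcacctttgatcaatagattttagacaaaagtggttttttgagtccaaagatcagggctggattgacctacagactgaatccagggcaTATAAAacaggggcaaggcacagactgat
Pygl, chr12:70227684-70227933, minus strand: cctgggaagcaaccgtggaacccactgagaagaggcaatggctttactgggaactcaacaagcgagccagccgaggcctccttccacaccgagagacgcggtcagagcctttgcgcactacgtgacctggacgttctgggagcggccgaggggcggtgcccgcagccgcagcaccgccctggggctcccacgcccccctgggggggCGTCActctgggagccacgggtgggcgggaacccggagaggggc
Pck1, chr2:173152823-173153072, plus strand: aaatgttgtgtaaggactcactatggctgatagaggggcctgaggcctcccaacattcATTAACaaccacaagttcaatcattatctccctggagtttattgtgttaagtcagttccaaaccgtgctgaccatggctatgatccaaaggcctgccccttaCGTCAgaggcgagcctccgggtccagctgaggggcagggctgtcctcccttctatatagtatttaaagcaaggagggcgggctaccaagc

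The G6pc window held 1 HNF1 core, 1 forkhead core and 1 TATA box, which began 221, 141 and 29 bases before the start. The Pck1 window held 1 CREB core, 90 bases before the start, and 1 HNF1 core, 192 bases before it, and the Pygl window held 1 CREB core, 44 bases before it. No 2 of these matches overlapped. Of all 32851 windows of this length in the table, 17.8% held the CREB core, 6.43% the HNF1 core, 17.8% the forkhead core and 12.4% the TATA box. A match describes the letters of the window and says nothing of binding.

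The arrays were compared before the genes. Arrays of the same tissue correlated over all probes at 0.766 to 0.793 in liver and 0.778 to 0.787 in kidney. Brain replicates 1 and 2 correlated at 0.765, but brain replicate 3 correlated with them at only 0.522 and 0.570, and with the kidney arrays at 0.584 to 0.627. For 5 of the 7 genes the kidney mean was approached most closely by brain replicate 3. Brain means of G6pc, Pck1, Fbp1 and Pygl are therefore given below with and without it. Without it those of Gys1, Pklr and Slc2a2 were 0.23, 0.16 and -0.29. All other brain values include it unless stated. The table holds ratios and not levels, so the tissue named in the labels could not be checked against marker levels, and 1 tissue field of the arrays titled kidney or liver names brain; the titles were followed.

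The liver ratios were led by G6pc, which encodes the catalytic subunit of glucose-6-phosphatase. On liver replicates 1, 2 and 3 it had log2 ratios of -2.73, -2.86 and -2.59. All 3 lay far below 0 and within a narrow range of each other. The mean was -2.73 ± 0.13 (SD, n = 3), so the SJL/J liver pool held 15.1% of the G6pc RNA of the C57BL/6J liver pool, a 6.62-fold lower level. Only 0.053% of named genes had a lower mean ratio in liver. In RNA of whole tissue, fewer cells of a type and less RNA per cell cannot be told apart. Of 18 measured hepatocyte markers, 12 were higher in the SJL/J liver pool, 3 were lower and 3 did not pass the test, with a median of 0.60, where 9.98% of named genes were higher and 14.1% lower. The part of hepatocyte number in the G6pc ratio was not tested.

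In kidney, which also makes G6pc, the same probe had log2 ratios of 0.08, 0.49 and 0.34. All lay just above 0, with a mean of 0.30 ± 0.20 (SD, n = 3), and none of them overlapped the liver values. The difference of the means, liver minus kidney, was -3.03. In brain the 3 arrays had -1.88, -1.72 and -1.03. All lay below 0 and between the liver and the kidney values, with a mean of -1.54 ± 0.45, and -1.80 without brain replicate 3. G6pc was measured at a single probe. The ratios came without intensities, so it could not be checked whether this probe, or any other, stood above background in brain.

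**Figure D1:**
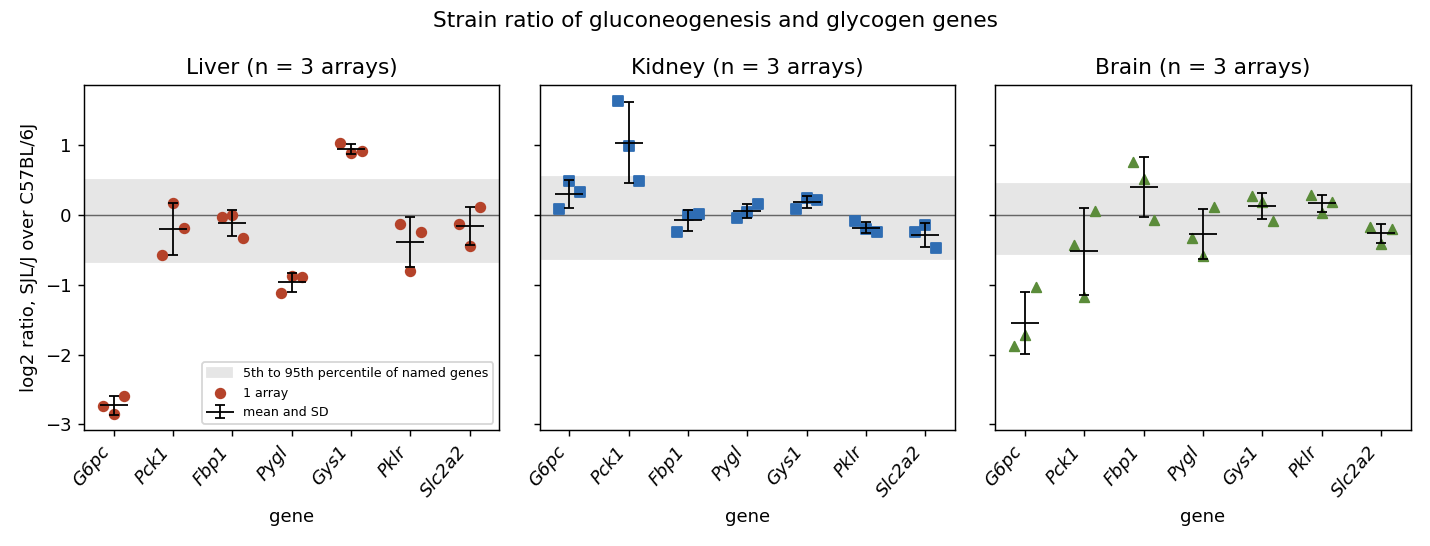
Log2 ratio, SJL/J over C57BL/6J (vertical axis), of the 7 genes (horizontal axis) on each of 3 arrays in liver, kidney and brain; points are arrays, bars are means with SD, and the grey band spans the 5th to 95th percentile of all named genes in that tissue. G6pc lies at -2.73 in liver and -1.54 in brain but at 0.30 in kidney, and the mean of Pck1 stands above the band in kidney, at 1.04.

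Pck1, a rate-controlling enzyme of gluconeogenesis, had its clearest ratio in kidney. Kidney replicates 1, 2 and 3 had 1.64, 0.99 and 0.49. All 3 lay above 0, but the highest was well above the lowest, so the size of the excess in the SJL/J pool was poorly fixed. The mean was 1.04 ± 0.58 (SD, n = 3), or 205% of the C57BL/6J kidney pool, and 0.444% of named genes had a higher mean in kidney. Liver arrays had -0.58, 0.17 and -0.18, on both sides of 0, with a mean of -0.20 ± 0.37. Brain arrays had -0.43, -1.18 and 0.06, with a mean of -0.52 ± 0.62, or -0.80 without brain replicate 3. The kidney values did not overlap those of liver or brain, and the liver and brain values overlapped each other. Of 10 proximal tubule markers, the segment where the kidney makes glucose, 2 were higher in the SJL/J kidney pool, 1 was lower and 7 did not pass, with a median of -0.02, where 13.4% of named genes were higher and 13.9% lower in kidney. Of 9 markers of the distal nephron 3 were higher and 6 did not pass, with a median of 0.15. Of 6 markers of Kupffer cells and macrophages 3 were higher, 1 was lower and 2 did not pass, with a median of 0.34. Of 10 markers of stellate and endothelial cells 3 were lower and 7 did not pass, with a median of -0.15. The part of these segments and cells in the Pck1 ratio was not tested.

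Fbp1, the bisphosphatase between these steps, gave ratios near 0 in both glucose-making tissues. Its liver arrays had -0.02, 0.01 and -0.32, and its kidney arrays -0.25, 0.01 and 0.02. The 2 sets overlapped, with means of -0.11 ± 0.18 and -0.07 ± 0.15 (SD, n = 3 each). In brain the arrays had 0.76, 0.52 and -0.07, and the mean of 0.40 ± 0.42 became 0.64 without brain replicate 3. Along the pathway in liver, therefore, the mean ratio was -0.20 for Pck1, -0.11 for Fbp1 and -2.73 for G6pc.

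Slc2a2, the glucose transporter of hepatocytes, proximal tubule and pancreatic beta cells, had small ratios everywhere. Liver arrays had -0.13, -0.44 and 0.11, with a mean of -0.15 ± 0.28 (SD, n = 3). All 3 kidney arrays (-0.24, -0.14 and -0.47) and all 3 brain arrays (-0.17, -0.42 and -0.20) lay below 0, with means of -0.28 ± 0.17 and -0.26 ± 0.13. The arrays of the 3 tissues overlapped, and the means spanned 0.13 log2 units, the narrowest range over tissues of the 7 genes.

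Pygl, which releases glucose units from liver glycogen, was the second lowest of the 7 genes in liver. Its liver arrays had -1.12, -0.88 and -0.89. They lay close together and below every kidney and brain array of this gene, with a mean of -0.96 ± 0.13 (SD, n = 3), or 51.4% of the C57BL/6J liver pool. Of named genes 2.38% had a lower mean ratio. Kidney arrays had -0.04, 0.05 and 0.16, around 0, with a mean of 0.06 ± 0.10. Brain arrays had -0.33, -0.59 and 0.12, with a mean of -0.27 ± 0.36, or -0.46 without brain replicate 3. The other spots of the line of 24 consecutive probe numbers that holds the Pygl probe had a median of -0.15 in liver, and the liver ratio of Pygl was -0.79 once each array was centred by line and by column.

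Gys1, the glycogen synthase known from muscle and most other tissues, was measured at 2 probes that did not give the same liver ratio. Probe number 6975 had 2.14, 2.01 and 1.72 on the liver arrays, whereas probe number 15379 had -0.07, -0.24 and 0.12. The first stood far above 0 on every array and the second lay around it, although both are annotated with the same transcript. Their liver means were 1.96 ± 0.22 and -0.06 ± 0.18 (SD, n = 3 each). In kidney they gave 0.16 ± 0.06 and 0.21 ± 0.15, and in brain 0.18 ± 0.34 and 0.08 ± 0.08, so their means differed by less than the larger SD in both tissues. Neither probe number is a multiple of 8, a position at which ratios were shifted downward, and the other spots of their lines had liver medians of -0.18 and -0.22. Averaged over the probes, as was done for every gene, Gys1 had 0.95 ± 0.08 in liver, 0.19 ± 0.09 in kidney and 0.13 ± 0.19 in brain. The averaged liver value described neither probe, and which of the 2 measured Gys1 RNA in liver was not tested.

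**Figure D2:**
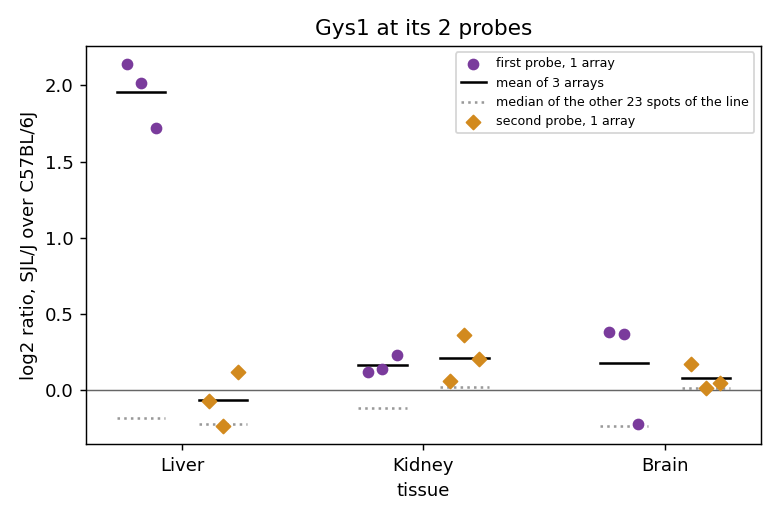
Log2 ratio, SJL/J over C57BL/6J (vertical axis), of Gys1 in liver, kidney and brain at the probe numbered 6975 (first, circles) and the probe numbered 15379 (second, diamonds); points are single arrays, solid bars are means of 3 arrays and dotted bars are medians of the other spots of the same line. The probes part in liver, at means of 1.96 and -0.06, and lie together in kidney and brain.

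Pklr, which makes pyruvate and is known to be induced in liver by glucose and insulin, lay below 0 on every liver array, at -0.12, -0.80 and -0.24. Replicate 2 stood below the other 2 arrays, and the mean was -0.39 ± 0.36 (SD, n = 3). Kidney arrays had -0.09, -0.20 and -0.25 and overlapped the liver arrays, with a mean of -0.18 ± 0.08. Brain arrays had 0.28, 0.03 and 0.19, all above 0, with a mean of 0.17 ± 0.13. The line that holds the Pklr probe had a median of -0.27 over its other spots in liver, and the liver ratio of Pklr was -0.11 after that centring.

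Set beside all named genes, the 7 genes had a median of -0.20 in liver (named genes -0.02), 0.06 in kidney (0.03) and -0.26 in brain (0.01). A linear model over all 21262 rows of the table (limma, adjusted p under 0.05) passed 3 of them as lower in liver, G6pc, Pygl and Pklr, where 14.1% of named genes passed as lower. Gys1 passed as higher in liver, where 9.98% of named genes did. Pck1 alone passed in kidney, as higher, where 13.4% of named genes did, and G6pc alone in brain, as lower, where 9.70% did. These counts restate the ratios the genes were picked with, and nothing is read from them. Pklr was no longer past the threshold after the centring by line and column, when the liver arrays were fitted on their own, or without brain replicate 1 or 2, kidney replicate 1, 2 or 3, or liver replicate 2 or 3, and Pck1 was not when kidney replicate 1 or kidney replicate 2 was left out. Without brain replicate 3, Fbp1 (higher) and Pygl (lower) also passed in brain, and G6pc (higher) in kidney.

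**Figure D3:**
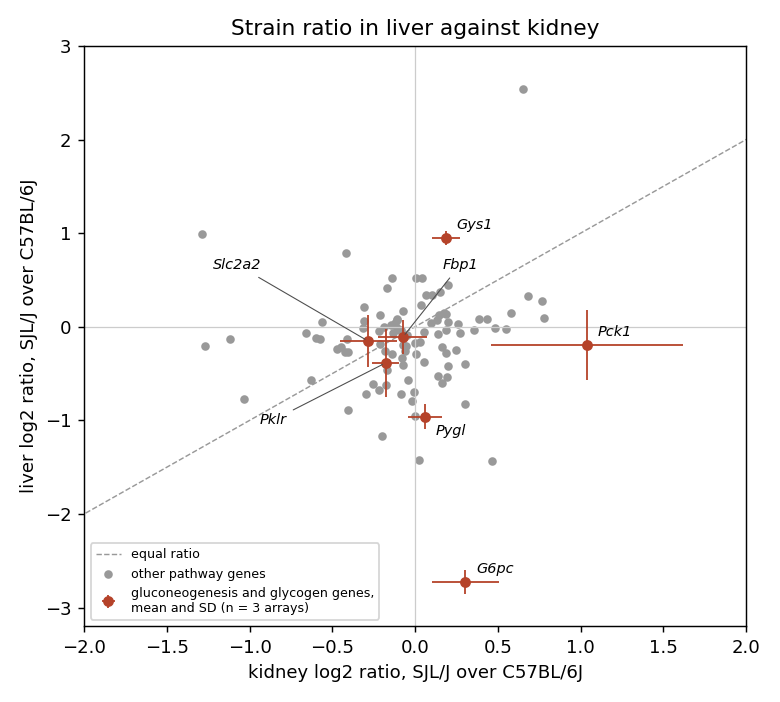
Mean log2 ratio, SJL/J over C57BL/6J, in liver (vertical axis) against kidney (horizontal axis) for the 7 genes (labelled, with SD over 3 arrays) and 96 other pathway genes (grey points); the dashed line marks equal ratios. G6pc and Pygl lie below the line, Gys1 above it, and Pck1 to its right, with a kidney mean of 1.04 and a liver mean of -0.20.

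The genes next to these on the chromosomes did not share the liver ratios of G6pc and Pygl. Aoc3 and Aarsd1, the nearest measured genes on either side of G6pc, had liver means of -0.02 and -0.10. Nin and Trim9, on either side of Pygl, had -0.06 and -0.28, and Ruvbl2 and Ftl1, on either side of Gys1, -0.16 and 0.26. None of these 6 passed the test in liver, where 14.1% of named genes passed as lower and 9.98% as higher. Zbp1, beside Pck1, passed as higher in liver (0.52, adjusted p = 0.00571), and Hcn3, beside Pklr, as lower in brain (-0.43, adjusted p = 0.00581). Fbp1 lies beside its muscle paralogue Fbp2, which fell in the SJL/J liver pool by 0.63 on the log2 scale (adjusted p = 0.00261). Fbp2 had -0.63 ± 0.10 in liver, against -0.11 ± 0.18 for Fbp1 (SD, n = 3 each).

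Other isoforms and partners of these enzymes had smaller ratios than G6pc. G6pc3, the glucose-6-phosphatase found in most tissues, had -0.08 ± 0.09 in liver, 0.14 ± 0.20 in kidney and -0.13 ± 0.34 in brain (SD, n = 3 each). G6pc2, its islet relative, had -0.05 ± 0.03 in liver and was lower in the SJL/J kidney pool, at -0.29 ± 0.03 (adjusted p = 0.0307). Slc37a4, which carries glucose 6-phosphate to the phosphatase in the endoplasmic reticulum, had -0.06 ± 0.16 in liver. Pcx, which feeds oxaloacetate to Pck1, had -0.29 ± 0.06 in liver and did not pass (adjusted p = 0.112). Pygm, the phosphorylase of muscle, fell in both tissues where glucose is made, to -0.56 ± 0.32 in liver (adjusted p = 0.0168) and -0.63 ± 0.22 in kidney (adjusted p = 0.00914).

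The G6pc pattern over the 9 arrays was most like that of Tmem254a, at a root mean square difference of 0.519 log2 units, followed by Hopx (0.583) and Pttg1 (0.650), among 13406 named genes measured at some position other than every 8th probe number. Tmem254a had mean log2 ratios of -2.58 in liver, -0.30 in kidney and -1.12 in brain, and Hopx had -2.50, 0.03 and -0.63. For Pck1 the nearest were 1700124L16Rik (0.276), Grb2 (0.302) and Mad2l1 (0.309), and for Pklr Smu1 (0.103), Trpm1 (0.151) and Creg1 (0.153).

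Of 96 measured genes in 4 lists of gluconeogenesis, glycogen metabolism, glucose entry and disposal, and hormonal and transcriptional control, 26 fell and 10 rose in the SJL/J liver pool and 60 did not pass. That is 27.1% lower and 10.4% higher, where 14.1% of named genes were lower and 9.98% higher. With each array centred by line and column, 14 were lower and 11 higher, so the excess of lower over higher calls was mostly lost. Without multiples of 8 the counts were 22 and 5, with fewer genes tested. Over all rows, unnamed probes included, 2599 were lower and 2802 higher in liver with neither change. After the centring they numbered 2149 and 1973, and without multiples of 8 they numbered 1861 and 2568. The list of gluconeogenesis partners had 11 of 19 lower, 0 higher and 8 not past the test, with a median of -0.42. Fbp2 was among the lower genes, and Pcx, G6pc3 and Slc37a4 were among those that did not pass. Gpd1, which takes glycerol into the pathway, had -1.16 ± 0.38 (SD, n = 3, adjusted p = 0.000269), and Mpc1, a subunit of the mitochondrial pyruvate carrier, -0.95 ± 0.22 (adjusted p = 0.000901, at a multiple of 8). Ldha, which interconverts lactate and pyruvate, had -0.71 ± 0.16 (adjusted p = 0.00245). With each array centred by line and column, 6 of the 19 fell and 1 rose, and 6, 7 and 6 fell without liver replicates 1, 2 and 3.

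Glycogen partners gave 8 lower, 0 higher and 10 not passed of 18 in liver, with a median of -0.21, beside the 14.1% lower and 9.98% higher of all named genes. Gyg, glycogenin, which primes new glycogen, was the lowest of all 4 lists, with -1.43, -1.62 and -1.25 on the liver arrays and a mean of -1.44 ± 0.19 (SD, n = 3, adjusted p = 0.000598). In kidney its mean was 0.47 ± 0.40, and the difference, liver minus kidney, was -1.90 (adjusted p = 0.00189). Phkg1, a catalytic subunit of phosphorylase kinase, had -0.71 ± 0.29 in liver (adjusted p = 0.00310), and Pgm1, which links glucose 1-phosphate to glucose 6-phosphate, -0.60 ± 0.15 (adjusted p = 0.0246). Phkg2, the other catalytic subunit of that kinase, had -0.06 ± 0.12 in liver and did not pass (adjusted p = 0.75, at a multiple of 8). Without liver replicate 1, 2 or 3 the list had 4 lower calls each time.

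Of 36 genes of hormonal and transcriptional control, 7 rose, 3 fell and 26 did not pass in liver, with a median of 0.04, where 9.98% of named genes were higher and 14.1% lower. Without liver replicate 1, 2 or 3, 4, 4 and 3 of them were higher and 2 lower each time. Irs2, which passes on the insulin signal and is itself lowered by insulin in liver, had 2.44, 2.53 and 2.64 on the liver arrays and a mean of 2.54 ± 0.10 (SD, n = 3, adjusted p = 5.95e-06). It was higher by 1.89 log2 units in liver than in kidney, where it had 0.65 ± 0.51 (adjusted p of the difference 0.000905). The kidney mean rested in part on kidney replicate 3 and was 0.36 without it. Ppara, a nuclear receptor of the fasting liver, had -1.43 ± 0.25 (adjusted p = 2.84e-05), and Cebpa, known to be needed for transcription of G6pc and Pck1 in mouse liver, -0.82 ± 0.35 (adjusted p = 0.000933). Insr, the insulin receptor, had 0.52 ± 0.21 (adjusted p = 0.00909, not passed without liver replicate 3), and Socs3, an inhibitor of cytokine signals, 0.79 ± 0.10 (adjusted p = 0.000174, at a multiple of 8). Foxa2, a forkhead factor of hepatocytes, had 0.45 ± 0.41 (adjusted p = 0.0493), but its 2 probes gave -0.23 and 1.12, and the mean was 0.21 without liver replicate 3.

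Of 23 genes of glucose entry and disposal, 3 rose, 4 fell and 16 did not pass in liver, with a median of -0.04, where 9.98% of named genes were higher and 14.1% lower. Pdk4, which shuts off pyruvate oxidation, fell to -0.89 ± 0.19 (SD, n = 3, adjusted p = 0.0209), Pfkfb3, which makes the activator of phosphofructokinase, to -0.61 ± 0.54 (adjusted p = 0.0194), and Gckr, the regulator of glucokinase, to -0.40 ± 0.30 (adjusted p = 0.0344). Without liver replicate 3 the mean of Pfkfb3 was -0.33, and without liver replicate 1 that of Gckr was -0.24, and neither then passed. Slc2a8, an intracellular glucose transporter at a multiple of 8, had 0.99 ± 0.43 in liver (adjusted p = 0.00971) and -1.29 ± 0.10 in kidney (adjusted p = 0.00220). Slc2a4, the insulin-responsive transporter of muscle and fat, had 0.53 ± 0.20 in liver (adjusted p = 0.0471). Slc2a8 did not pass in liver without liver replicate 1, nor did Slc2a4 without liver replicate 1, 2 or 3. When liver replicate 1, 2 or 3 was left out, the calls of this list numbered 1, 2 and 3. With each array centred by line and column, 4 rose and 0 fell.

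The difference, liver minus kidney, passed the test for 21 of the 96 pathway genes, as negative for 13 and positive for 8, where 10.3% of named genes passed as negative and 8.18% as positive. The balance turned with the processing: 9 were negative and 12 positive with each array centred by line and column, and 11 and 2 without multiples of 8. Those counts have no share of all genes beside them, so whether the pathway genes moved apart from the rest was not tested.

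**Figure D4:**
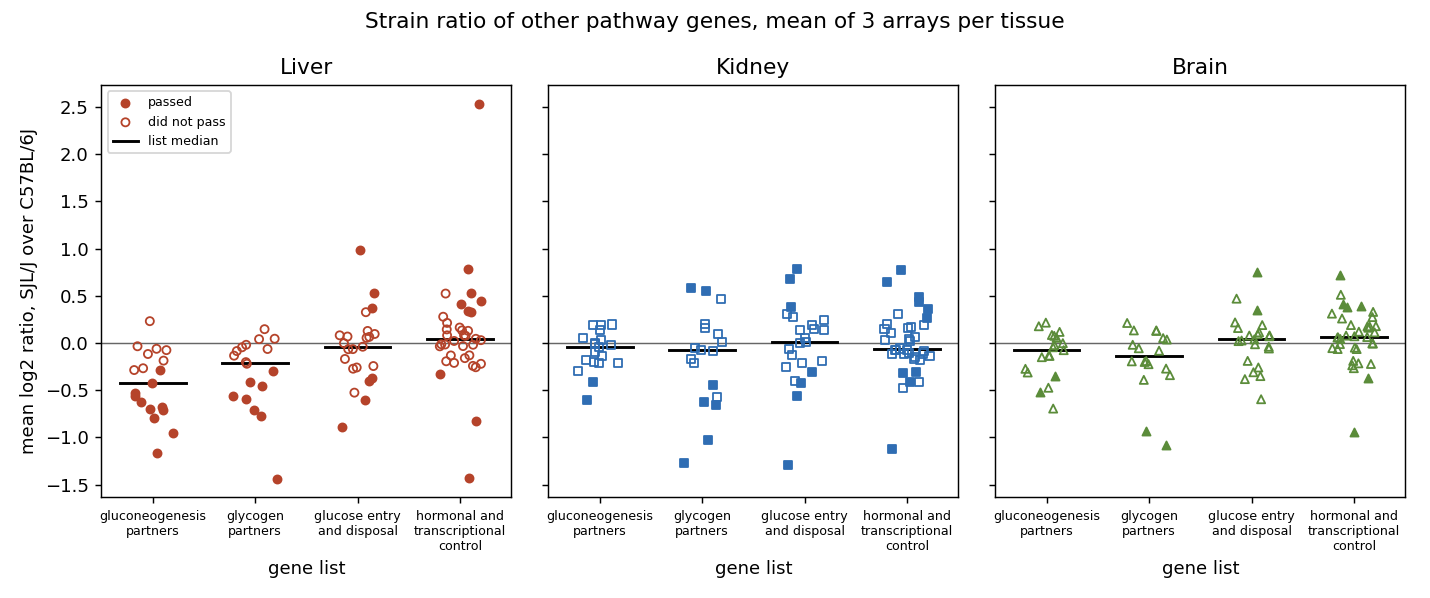
Mean log2 ratio, SJL/J over C57BL/6J, over 3 arrays (vertical axis) of 96 other pathway genes in 4 lists (horizontal axis) in liver, kidney and brain; each point is a gene, filled where it passed the test, and bars are list medians. The list of gluconeogenesis partners lies mostly below 0 in liver, with a median of -0.42, against -0.05 in kidney and -0.08 in brain.

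In kidney 11 of the 96 pathway genes rose, 15 fell and 70 did not pass, that is 11.5% higher and 15.6% lower, where 13.4% of named genes were higher and 13.9% lower. Khk, which opens fructose breakdown in the proximal tubule, had 0.78 ± 0.28 (SD, n = 3, adjusted p = 0.00158), and Foxo1, a forkhead factor that acts on G6pc and Pck1 in liver, 0.48 ± 0.31 (adjusted p = 0.0104), with a mean of 0.305 without kidney replicate 1. Cebpb, a factor that also acts on Pck1, had 0.77 ± 0.35 (adjusted p = 0.00389), and Igfbp1, a target of the same forkhead factor in liver, 0.43 ± 0.04 (adjusted p = 0.0105). Of the 36 genes of hormonal and transcriptional control, 6 rose and 4 fell in kidney. The lower ones were Creb1 (-0.32 ± 0.06, adjusted p = 0.042), Crtc2 (-0.31 ± 0.11, adjusted p = 0.0354), Nr5a2 (-1.12 ± 0.08, adjusted p = 0.000992) and Socs3 (-0.42 ± 0.11, adjusted p = 0.00565). Nr5a2 and Socs3 were measured at multiples of 8. Pfkl, the phosphofructokinase of liver, had 0.68 ± 0.23 (adjusted p = 0.0220), and Slc2a1, the transporter of most cells, -0.56 ± 0.26 (adjusted p = 0.0290). Gbe1, the glycogen branching enzyme, had -1.27 ± 0.08 (adjusted p = 0.000288), and Gaa, the lysosomal enzyme that breaks glycogen down, -1.03 ± 0.16 (adjusted p = 0.000707). Both lie at multiples of 8, where all 2880 probes had a median of -0.36 in kidney, against 0.06 at the others. In brain 6 rose, 6 fell and 84 did not pass, that is 6.25% each way, where 7.72% of named genes were higher and 9.70% lower, and Gbe1 and Gaa were again among the lowest, at -1.08 ± 0.49 (adjusted p = 0.00124) and -0.94 ± 0.24 (adjusted p = 0.00200). Mlxipl, the carbohydrate-responsive factor ChREBP, had 0.75 ± 0.18 in brain (adjusted p = 0.00147), and Irs2 0.72 ± 0.24 (adjusted p = 0.0131).

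Markers of other cell types are set beside the liver ratios, where 9.98% of all named genes passed as higher and 14.1% as lower. Of 14 measured markers of pancreatic acinar cells, 4 were higher in the SJL/J liver pool, the highest ratio being 3.79, 1 was lower and 9 did not pass, with a median of 0.18. Of 5 islet markers 0 were higher and 1 was lower, with a median of -0.17. Of 6 markers of Kupffer cells and macrophages 1 was higher and 5 did not pass, with a median of 0.11, and of 10 markers of stellate and endothelial cells 1 was lower and 9 did not pass, with a median of -0.12. The 5 cholangiocyte markers gave 0 higher and 1 lower (median -0.04), and of 3 erythroid markers 2 were higher and 1 lower. Their part in the liver ratios of the glucose genes was not tested.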

How the data were processed

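The authors deposited 1 log2 ratio per spot and array, without intensities, so dim spots were kept. Tools named per the submitters' processing notes are R 2.0.0 and limma; how background was corrected is not stated. Once sorted, the deposited log2 values of the 9 arrays were identical, from -3.91 to 5.09, with 0.01 as their median.

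Probes were named by the platform annotation (16874 probes with 1 symbol, 134 with several, 6032 unnamed here), and probes of a gene were averaged; all other probes kept a row each, giving 21262 rows. Of the 7 genes found, 7 matched the RefSeq gene table of assembly GRCm38.p6 by gene identifier; it was used only for names and neighbours. A model with 1 coefficient per tissue was fitted (lmFit and eBayes of limma 3.58.1, under R 4.3.3), with 6 residual degrees of freedom. Tests were two-sided, with Benjamini-Hochberg adjustment over all rows and a threshold of 0.05. The script was tested on simulated data. The number of arrays limits the precision.

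The genes and the lists were chosen with earlier results of these data known. Pathway genes named were up to the 4 highest and 4 lowest called per tissue, up to 3 more called per list, and the 3 largest called differences between liver and kidney; the 3 nearest patterns were found for G6pc, Pck1 and Pklr. G6pc2, G6pc3, Slc37a4, Pcx and the chromosomal neighbours, Fbp2, Pygm and Phkg2 in liver, and Creb1 and Crtc2 in kidney, were named outside that rule, after values were seen. The lists held 131 symbols, older aliases included, of which 96 were measured. Marker lists of liver, pancreatic and erythroid cells are given for liver. For kidney, only those of the proximal tubule, the distal nephron, macrophages, and stellate and endothelial cells are given, beside Pck1. Alternatives were the fit of single probes, centring of each array by lines of 24 consecutive probe numbers and by columns (medians removed), omission of probe numbers that are multiples of 8, fits per tissue, array weights, a replicate block and omission of each array.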

Additional observations from a re-analysis of the deposited data

Results flagged for a closer look

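Ratios differed between tissues for several genes. All liver arrays of G6pc lay below 0 and all its kidney arrays above 0, with a difference of means, liver minus kidney, of -3.03, and its kidney arrays lay above 0 where its brain arrays lay below, by 1.85 (kidney minus brain). All brain arrays of Pklr lay above 0 and its liver and kidney arrays below, with differences of -0.555 (liver minus brain) and -0.347 (kidney minus brain). These 4 differences were not tested, since the genes were picked with them known. Without intensities it could not be checked whether the G6pc and Pklr probes stood above background in brain.

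Among the pathway genes named, the difference, liver minus kidney, passed limma's test with 3 arrays in each tissue. It was positive for Slc2a8 (2.28, adjusted p = 0.00158), Irs2 (1.89), Socs3 (1.20), Gbe1 (1.07), Nr5a2 (0.987), Phkg2 (0.596) and Crtc2 (0.522). It was negative for Gyg (-1.90), Ppara (-1.45), Cebpa (-1.13), Gpd1 (-0.965), Mpc1 (-0.953), Pgm1 (-0.757), Gckr (-0.705), Khk (-0.684), Phkg1 (-0.631) and Ppp1r3d (-0.433, adjusted p = 0.0420). Of these, Slc2a8, Socs3, Gbe1, Nr5a2, Phkg2 and Mpc1 were measured at multiples of 8. In all, 13 of 96 pathway genes had a negative and 8 a positive difference past the threshold, where 10.3% and 8.18% of named genes did. With each array centred by line and column the counts were 9 and 12. Without multiples of 8 they were 11 and 2, and neither setting has a share of all genes beside it.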

How the results depend on the processing

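Mean ratios of the 7 genes moved by over 1 SD in 4 cases, Gys1 in liver by single probes and, after centring by line and column, Gys1, Pygl and Fbp1 in liver (Fbp1 at 0.18), and none past the threshold changed sign; omission of an array, fits per tissue, the replicate block and omission of multiples of 8 cannot move a mean that far. With that centring the pathway genes called in liver were 14 lower and 11 higher (26 and 10 without it). All rows called in liver were then 2149 lower and 1973 higher (2599 and 2802 without it). Pathway genes with a difference between liver and kidney were 9 negative and 12 positive (13 and 8). Ratios of named pathway genes kept their side of the threshold in 677 of 796 and lost it in 118. Socs3 in kidney reversed, to 0.0073 (adjusted p = 0.963), with medians of lines and columns removed. Array weights gave 2 of the 7 genes called in kidney and 3 in brain, 20 pathway genes in brain and 32 with a difference between liver and kidney. Fits of each tissue on its own arrays gave 1477 rows and 5 pathway genes called in brain, where the shared spread gave 4399 and 12. Removal of medians of lines and columns gave 17 pathway genes in kidney (26 without it), and omission of multiples of 8 gave 13 with a difference between liver and kidney (21 with them), with fewer genes tested. Without each array in turn, rows called numbered 3117 to 6437 in liver, 3670 to 7416 in kidney and 2227 to 4692 in brain, where all arrays gave 5401, 6295 and 4399. Of the 7 genes, 3 to 4 were called in liver, 0 to 2 in kidney and 1 to 3 in brain. Pathway genes called numbered 17 to 40 in liver, 12 to 28 in kidney, 5 to 18 in brain, and 11 to 31 for the difference between liver and kidney; the highest counts came without brain replicate 3. Arrays with the same replicate number did not deviate together (correlations of -0.0851 to 0.0505), so the numbers were not read as pairs; with a replicate block, 30, 24 and 10 pathway genes were called in liver, kidney and brain, 16 for the difference, and 4, 1 and 1 of the 7 genes.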
